A study of Mus musculus with 4 samples.

Results

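The genes described here are 47 genes of adipogenesis and of the lipid droplet, taken by name from a list of regulators, fatty acid carriers, adipokines, droplet proteins and lipid enzymes. Each of them was matched to at least 1 probe, out of 20660 genes named on the arrays. The list was drawn up with the lower signal of adipocyte genes in the RFP-positive cells already known, so the differences between the fractions are given as a description and no test is made on the members. The cultures were started from the mouse embryonic stem cell line EB5, in which red fluorescent protein (RFP) reports on Hoxb6. Differentiation ran for 6 days over a feeder layer of OP9, a stromal line from mouse bone marrow, before a sort on the reporter and on an antibody to Flk-1, the VEGF receptor encoded by Kdr. Reporter, feeder, day of culture and the Flk-1 gate were common to both fractions, which were sorted apart by the reporter signal. The 2 RFP-positive and the 2 RFP-negative samples were each measured on a one-colour array. Whether the 2 samples of a fraction came from separate cultures is not stated in the labels, and the spread between them may be technical.

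Adipogenesis is driven by a cascade of transcription factors in which C/EBPβ and C/EBPδ act early and PPARγ and C/EBPα late. The late factors maintain genes for fatty acid uptake, triglyceride synthesis and lipolysis and for the proteins that coat the single large lipid droplet of a fat cell. Many of the enzymes are not restricted to fat. Fatty acid synthesis runs in most dividing cells, and Fabp4 and Cd36 are also made by endothelial cells and macrophages. OP9 cells, the feeder of these cultures, are known to be able to turn into adipocytes.

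All levels are log2 signals relative to the 75th percentile of the array, so that 0 is the signal of that percentile and 1 unit is a 2-fold change. Probes differ in their response, and levels are therefore compared between arrays for one gene and not between genes. Differences are RFP-positive minus RFP-negative. Errors are given as the SD between both arrays of a fraction or as the standard error (SE) of the difference from the limma fit across all genes. A gene counted as measured where the scanner marked its probe as well above background, and entered the comparison where this held on both arrays of at least 1 fraction, as it did for 13432 genes. Of the arrays' spots other than controls, between 55.2% and 59.3% were well above background and 0 were saturated. Kdr, which marks the gate, was measured on all 4 arrays, and the Hoxb6 probe on 0 of them, so the transcript gives no check of the RFP labels. Over all genes 0 passed a Benjamini-Hochberg adjusted p of 0.05 in limma (0% of 13432), the smallest adjusted p being 0.110, and 872 had an unadjusted p under 0.05. The number of arrays limits the precision of every value below.

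Of the 47 members, 42 entered the comparison and 38 were measured on all 4 arrays. In RFP-positive cells 24 of the 42 were lower, with both arrays below both RFP-negative arrays, 3 were higher without overlap and 15 overlapped. Over all genes 21.6% were lower and 18.8% higher in the same sense. With each array scaled to its median instead, these shares were 16.6% and 24.4%, and 24 members were lower and 4 higher. A gene that enters because it was measured in 1 fraction alone is likely to differ by that choice. Among the 38 members measured on all 4 arrays 21 were lower and 3 higher, where 20.4% and 18.9% of the 12422 genes so measured were. The median difference was −0.70 over the 42 members and −0.57 over the 38, beside −0.05 and −0.04 over the corresponding genes. From bulk RNA, fewer cells of one type and less RNA per cell cannot be told apart.

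The members differed by role. Droplet coat proteins of the fat cell, adipokines, fatty acid uptake genes, enzymes of lipolysis and triglyceride synthesis and the late regulators Pparg and Cebpa made up most of the lower ones. Apart from Scd2, the genes of fatty acid synthesis were not among them, nor were their regulators Srebf1 and Mlxipl, and leptin and Ucp1 were well above background on 0 arrays. By size, 7 members measured on all 4 arrays were at least 2-fold lower on every pair of arrays, namely Cidec, Cfd, Adipoq, Plin4, Fabp4, Gpd1 and Pparg, as were 36 of the 12422 genes so measured (0.29%). Counted on the signals as scanned, Mgll and Trarg1 brought this to 9 members, beside 0.886% of all genes. On the same count 0.469% of all genes were higher by as much, as were 0 members. Trarg1 was measured on neither RFP-positive array, and its bound of at least 1.57-fold does not show a 2-fold difference. Mgll was measured on 1 RFP-positive array, replicate 2, at −4.0 against −2.43 and −1.44. Its signal on RFP-positive replicate 1, −3.84, was not well above background. With normexp background correction the class held 5 members and 0.0819% of all genes. It held 14 members and 2.57% of all genes without RFP-negative replicate 1, and 16 members and 7.33% without RFP-positive replicate 1. The gap between the fractions was wider than the range within either fraction in 11 of the 38 members measured on all arrays, beside 3.98% of genes, and in 13 of the 42, beside 4.56%.

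**Figure D1:**
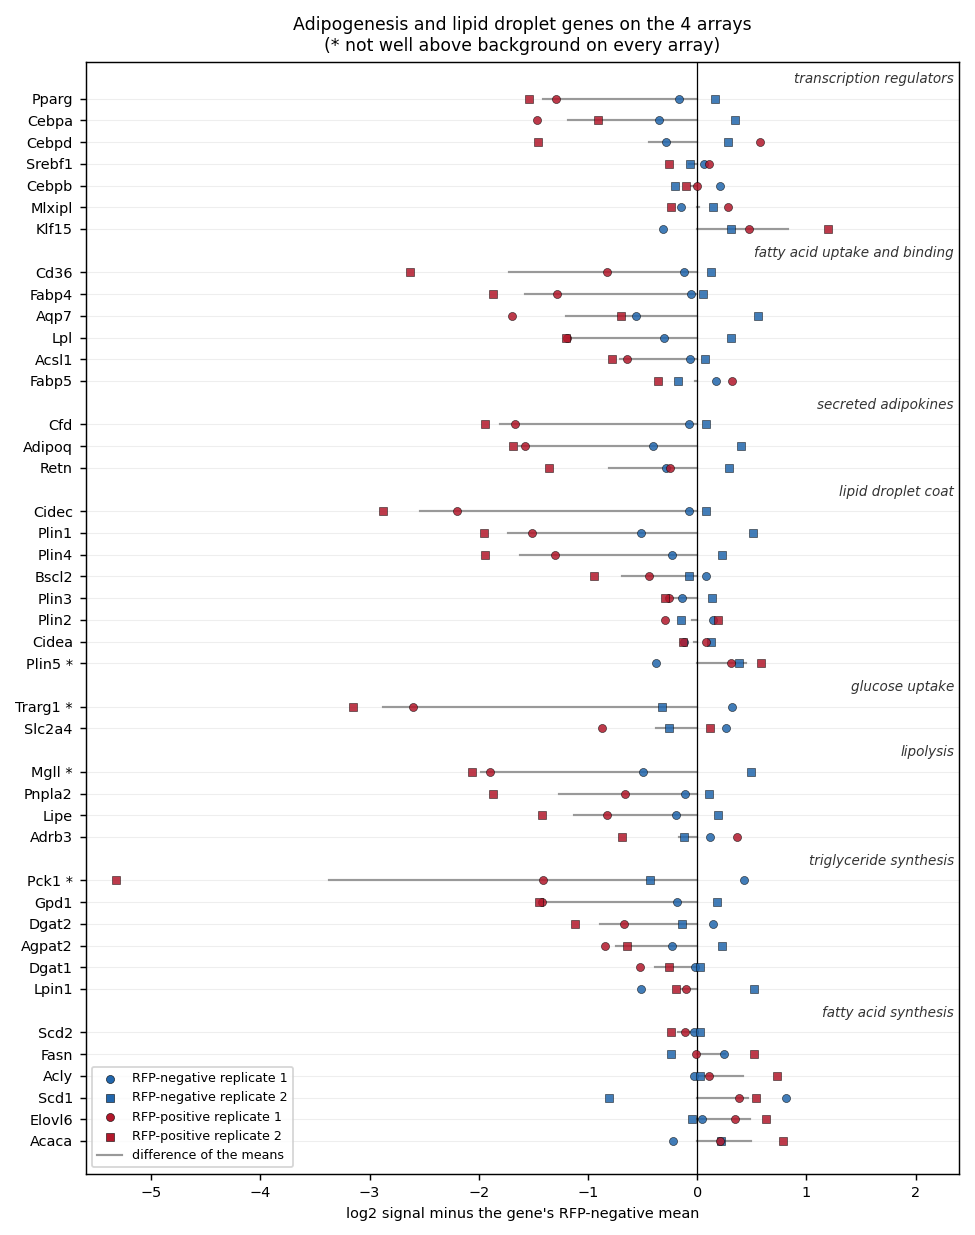
The signal of the 42 members that entered the comparison is plotted on each array, on the log2 scale and relative to the gene's RFP-negative mean, grouped by role. Circles are replicate 1 and squares replicate 2 of RFP-negative (blue) and RFP-positive (red) cells, grey bars run to the difference of the means, and asterisks mark genes not measured on every array. Red points lie left of both blue points for 24 members and right of both for 3, Klf15, Acly and Elovl6.

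Promoters are shown for members that were lower together and, beside them, for a pair that was higher, so that their sequences can be compared. They come from RefSeq on build GRCm38.p6, in which 34 of the 47 members have an entry, and each gives the 250 bases before the start of transcription, 5′ to 3′ along the gene. Capitals mark any of 5 motifs found on either strand. Those of the core promoter were the TATA box, spelled TATAAA, and the box named for its letters CCAAT. The core site of nuclear receptors was searched as AGGTCA, and an element of the C/EBP type as TTNNGCAA. The E-box, bound by factors such as those encoded by Srebf1 and Mlxipl, was searched as CACGTG. A direct repeat of the core site spaced by 1 base of any kind, the form that PPARγ and its partner bind, was searched as well, and its letters were in none of these sequences. For Pparg the most downstream of 3 starts is shown, at chr6:115421816-115422065 on the plus strand. The others are Cebpa at chr7:35119043-35119292 (plus), Adipoq at chr16:23146286-23146535 (plus), Plin1 at chr7:79732777-79733026 (minus), Plin4 at chr17:56109783-56110032 (minus), Elovl6 at chr3:129532136-129532385 (plus) and Klf15 at chr6:90462326-90462575 (plus).
Pparg (lower): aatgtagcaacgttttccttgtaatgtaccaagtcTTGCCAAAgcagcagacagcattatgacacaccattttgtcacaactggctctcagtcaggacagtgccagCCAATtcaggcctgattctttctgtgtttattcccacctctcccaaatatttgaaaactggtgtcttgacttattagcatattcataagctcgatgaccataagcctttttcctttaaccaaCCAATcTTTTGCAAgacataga
Cebpa (lower): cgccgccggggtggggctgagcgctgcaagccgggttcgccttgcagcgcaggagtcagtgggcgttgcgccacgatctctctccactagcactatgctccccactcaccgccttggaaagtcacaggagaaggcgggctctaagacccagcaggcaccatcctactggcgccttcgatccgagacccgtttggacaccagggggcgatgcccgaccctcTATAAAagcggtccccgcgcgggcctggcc
Adipoq (lower): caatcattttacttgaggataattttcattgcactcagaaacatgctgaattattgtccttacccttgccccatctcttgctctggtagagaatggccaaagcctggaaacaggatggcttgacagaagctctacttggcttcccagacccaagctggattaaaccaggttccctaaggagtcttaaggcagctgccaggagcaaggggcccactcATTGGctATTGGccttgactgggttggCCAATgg
Plin1 (lower): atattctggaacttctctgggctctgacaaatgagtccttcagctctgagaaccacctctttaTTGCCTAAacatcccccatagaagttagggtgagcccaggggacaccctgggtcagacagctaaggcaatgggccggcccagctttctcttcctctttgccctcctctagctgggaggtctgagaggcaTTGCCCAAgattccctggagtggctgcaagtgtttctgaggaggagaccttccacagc
Plin4 (lower): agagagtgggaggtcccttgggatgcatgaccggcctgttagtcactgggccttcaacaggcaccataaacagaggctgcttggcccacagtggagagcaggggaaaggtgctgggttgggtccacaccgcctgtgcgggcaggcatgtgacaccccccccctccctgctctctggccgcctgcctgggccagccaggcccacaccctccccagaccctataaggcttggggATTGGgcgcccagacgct
Elovl6 (higher): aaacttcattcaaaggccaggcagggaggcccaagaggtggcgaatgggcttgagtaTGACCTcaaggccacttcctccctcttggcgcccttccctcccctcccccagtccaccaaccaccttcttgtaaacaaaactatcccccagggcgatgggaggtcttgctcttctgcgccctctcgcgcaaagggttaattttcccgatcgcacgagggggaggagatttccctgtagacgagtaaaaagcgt
Klf15 (higher): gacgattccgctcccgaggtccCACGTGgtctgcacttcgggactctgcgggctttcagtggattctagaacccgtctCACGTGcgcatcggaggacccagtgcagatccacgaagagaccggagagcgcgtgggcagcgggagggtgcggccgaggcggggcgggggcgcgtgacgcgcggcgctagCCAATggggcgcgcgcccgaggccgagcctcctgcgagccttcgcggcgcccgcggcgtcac

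The C/EBP-type element occurred in 2 places each in the Pparg and Plin1 sequences and in none of the other 5, lower or higher, nor before the other Pparg starts. Klf15 held 2 E-boxes and a CCAAT box, Adipoq 3 CCAAT boxes within the last 40 bases before the start, and Cebpa a TATA box starting 30 bases before it. Counted over the whole entries of 300 bases, which also cover 50 bases after the start, the element was in 3 of the 26 promoters of lower members (11.5%) and in 0 of the 16 of the other members compared, beside 10.8% of all 32851 promoters. The core site was in 23.1% of the lower and 37.5% of the other members' promoters, and in 16.3% of all. The direct repeat was in 0 promoters of either group and in 13 of all promoters (0.0396%). CCAAT boxes were in 30.8%, 50% and 37.4%, E-boxes in 7.69%, 18.8% and 7.15%, and TATA boxes in 7.69%, 6.25% and 13.6% in the same order. The median number of CpG dinucleotides was 6.5 in the lower members' promoters, 16 in the others' and 7 in all, and the median GC content was 57.5%, 61.7% and 52.7%. Several starts belong to 1 gene, the 26 promoters to 17 genes, and these shares are descriptions of letters and not of binding.

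Among the 7 regulators compared, Pparg and Cebpa were lower, Klf15 was higher and the other 4 overlapped. As shares these were 28.6% lower and 14.3% higher, near the 21.6% and 18.8% over all genes. Pparg, the nuclear receptor that governs fat cell formation, read 0.46 and 0.79 on the RFP-negative and −0.67 and −0.91 on the RFP-positive arrays. Both RFP-positive values lay below both RFP-negative ones, and the difference of −1.41 (SE 0.26) is a 2.66-fold lower mean. The probe was spotted repeatedly, and the SD over its 9 or 10 usable spots was between 0.036 and 0.086 within an array, less than the 0.23 and 0.17 between the arrays of a fraction. Cebpa, which sustains Pparg in the mature cell, read 0.85 and 1.54 against −0.27 and 0.28. Its fractions did not overlap either, with a difference of −1.19 (SE 0.36).

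Cebpb, which is induced at the start of adipogenesis, had a mean of 2.90 ± 0.29 (SD, n = 2) in the RFP-negative fraction and of 2.85 ± 0.07 (SD, n = 2) in the RFP-positive one. The sign of its difference turned with the scaling, at −0.05 as reported and 0.03 with median scaling. Cebpd, its partner in the early phase, read −1.29 and −0.73 against −0.44 and −2.47, so that the RFP-positive arrays held both its highest and its lowest value. Srebf1, the regulator of lipid synthesis by insulin and sterols, differed by −0.07 and Mlxipl, its counterpart for glucose, by 0.02. Both overlapped, and Srebf1 differed by 0.01 with median scaling. Klf15, a zinc finger factor of the later phase, read −0.64 and −0.01 against 0.15 and 0.87 and was higher in RFP-positive cells by 0.83 (SE 0.38). The gap between its fractions, 0.16, was smaller than the range within either.

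The other 3 regulators were not compared. Ppargc1a, the coactivator of mitochondrial genes, was well above background on 0 arrays. Prdm16, the determinant of brown fat, was so on RFP-negative replicate 2 alone, at −2.57, and Thrsp, a lipogenic thyroid hormone target, on RFP-negative replicate 1 alone, at −2.39.

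Genes for fatty acid uptake and handling were lower in 5 of 6 cases, beside 21.6% of all genes, with a median difference of −1.20. Fabp4, the cytosolic fatty acid carrier of fat cells, read 4.86 and 4.97 against 3.63 and 3.05. The fractions lay 1.23 apart at their nearest, and the difference was −1.58 (SE 0.29). Its relative Fabp5, the carrier of skin and many other tissues, read 5.75 and 5.41 against 5.89 and 5.22. These values overlapped, with a difference of −0.02 that became 0.06 with median scaling. In the order of protein-coding genes along the chromosome, 2 genes lie between Fabp4 and Fabp5.

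Lpl, the secreted lipase that frees fatty acids from lipoproteins, read 1.12 and 1.74 against 0.24 and 0.23, a difference of −1.20 (SE 0.30). Cd36, a fatty acid transporter of the cell surface, read −0.35 and −0.10 against −1.05 and −2.85. It was lower on both RFP-positive arrays, and its difference of −1.73 (SE 0.63) rests largely on replicate 2. Aqp7, the glycerol channel of fat cells, read 0.26 and 1.37 against −0.88 and 0.12, with a gap of only 0.14 between the fractions. Acsl1, which activates long-chain fatty acids, was lower by 0.71 with little spread, with means of 3.45 ± 0.09 and 2.74 ± 0.10 (SD, n = 2 each).

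Adipokines that mark the mature fat cell were lower as well. Cfd, or adipsin, a serine protease of the complement system that fat cells secrete, read 2.47 and 2.63 against 0.88 and 0.61. Its fractions were 1.59 apart at their nearest, and the RFP-positive mean was 3.50-fold lower (difference −1.81, SE 0.24). Adipoq, the hormone adiponectin, read 1.90 and 2.70 against 0.72 and 0.62, a difference of −1.63 (SE 0.34) or 3.10-fold. Retn, or resistin, read −1.36 and −0.78 against −1.32 and −2.43 and overlapped narrowly. Lep, the hormone leptin, stood well above background on 0 arrays, over 9 or 10 spots of its probe on each.

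Of the droplet coat genes 5 were lower and 3 overlapped, where 21.6% of all genes were lower. Cidec, which fuses small droplets into a single large one, read 1.5 and 1.65 against −0.63 and −1.31. The fractions were 2.13 apart at their nearest, and the RFP-positive mean was 5.82-fold lower (difference −2.54, SE 0.32), the widest gap of the members measured on all 4 arrays. Plin1, the perilipin that guards the droplet of fat cells against lipases, read 0.67 and 1.69 against −0.33 and −0.77 (difference −1.73, SE 0.42). Plin4, a perilipin of nascent droplets in fat, read 1.18 and 1.64 against 0.11 and −0.53 (difference −1.63, SE 0.34). Both were lower on every RFP-positive array. Bscl2, or seipin, which acts where droplets bud from the endoplasmic reticulum, read −0.08 and −0.23 against −0.60 and −1.1 (difference −0.69, SE 0.28).

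Of the remaining coat genes Plin3 was lower by a smaller difference, and Plin2, Plin5 and Cidea overlapped. Plin2, found on droplets of most cells, read −0.10 and −0.40 against −0.55 and −0.05 and overlapped, with a difference of −0.05 that was 0.03 with median scaling. Plin3, another widespread perilipin, read 4.14 and 4.42 against 4.01 and 3.98, lower without overlap by 0.28. Plin5, the perilipin of oxidative tissues, was measured on 3 arrays and read −4.0, not well above background, and −3.24 against −3.31 and −3.04. Its difference of 0.44 became −0.05 with normexp background correction. Plin4 and Plin5 are direct neighbours on the chromosome, with 0 protein-coding genes between them. Cidea, the relative of Cidec in brown fat, was at −3.20 ± 0.17 (SD, n = 2) and −3.22 ± 0.15 (SD, n = 2), and its difference of −0.03 became 0.06 with median scaling.

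**Figure D2:**
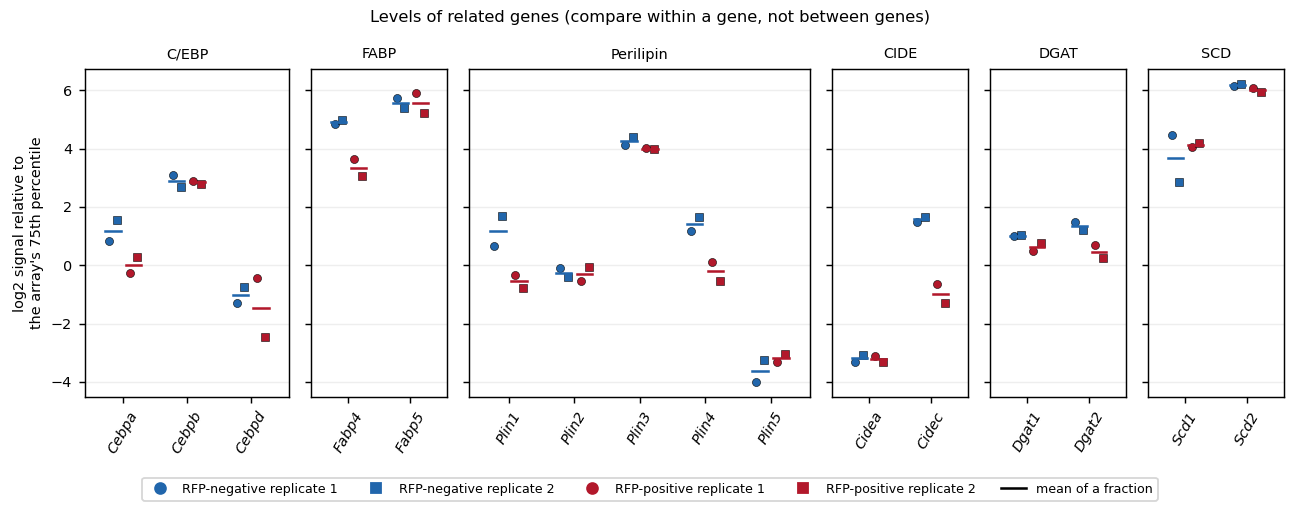
The level of members of 6 gene families is shown on each array as log2 signal relative to the array's 75th percentile, with the mean of each fraction as a line. Cebpa, Fabp4, Plin1, Plin4 and Cidec are lower on both RFP-positive arrays by a mean of at least 1.19. Plin3, Dgat1, Dgat2 and Scd2 are also lower without overlap, with smaller differences of −0.28, −0.39, −0.89 and −0.17. Cebpb, Cebpd, Fabp5, Plin2, Plin5, Cidea and Scd1 overlap between the fractions.

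Glucose uptake gave a bound and an overlap. Trarg1, which helps to move the glucose transporter Glut4 to the surface of fat cells, read −3.29 and −3.93 in RFP-negative cells, and on neither RFP-positive array did it stand well above background. RFP-negative cells had at least 1.57-fold the RFP-positive signal, the RFP-positive arrays being set at their lowest signal well above background. Slc2a4, which encodes Glut4, read −1.33 and −1.86 against −2.47 and −1.47, and RFP-positive replicate 2 lay between the RFP-negative values. Its difference of −0.37 turned to 0.12 without RFP-positive replicate 1.

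The enzymes of lipolysis act in sequence, and all 3 had lower signals, beside 21.6% of all genes lower without overlap. Pnpla2, the lipase that takes the first fatty acid from a triglyceride, read 1.65 and 1.87 against 1.1 and −0.12 (difference −1.27, SE 0.46). Lipe, the hormone-sensitive lipase that takes the next, read −0.57 and −0.18 against −1.20 and −1.80 (difference −1.12, SE 0.32). Mgll, which splits the remaining monoglyceride, read −2.43 and −1.44 against −3.84 and −4.0 and was well above background on 1 RFP-positive array, replicate 2. Neither lipase overlapped between the fractions, though the RFP-positive arrays differed from each other for Pnpla2 by more than the gap of 0.55 between the fractions. Adrb3, the receptor through which noradrenaline starts lipolysis in fat, overlapped with a difference of −0.17.

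In triglyceride synthesis 5 of 6 genes were lower, beside 21.6% of all genes. Among the 5 measured on all 4 arrays 4 were lower, beside 20.4% of the genes so measured. Gpd1, which makes glycerol 3-phosphate, read 2.57 and 2.94 against 1.33 and 1.31. The RFP-positive arrays agreed closely, and the difference was −1.44 (SE 0.25) or 2.71-fold. Agpat2, which adds the second fatty acid, differed by −0.74 (SE 0.27) and Dgat2, which adds the third, by −0.89 (SE 0.28). Dgat1, the other enzyme of that last step, read 0.99 and 1.04 against 0.49 and 0.76 (difference −0.39, SE 0.24). Lpin1, the phosphatase before it, read −2.87 and −1.83 against −2.46 and −2.54 and overlapped.

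Pck1, which feeds glycerol synthesis in fat and glucose synthesis in liver, read −1.06 and −1.92 against −2.90 and −6.81. Of the RFP-positive arrays replicate 1 alone was well above background, and its value differed from the RFP-negative mean by −1.41. The mean difference over both, −3.37 (SE 1.31), rests on an unmeasured signal.

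Of the 6 genes of fatty acid synthesis 1 was lower, 2 were higher and 3 overlapped, beside 21.6% lower and 18.8% higher over all genes. With so few genes these counts do not set the role apart from all genes. Acly, which makes cytosolic acetyl-CoA, read 3.22 and 3.28 against 3.36 and 3.98, higher by 0.42 (SE 0.30). Elovl6, which lengthens palmitate, read 3.77 and 3.68 against 4.07 and 4.35, higher by 0.48 (SE 0.24). These 2 were higher without overlap, Acly on its brightest probe alone. Acaca, which makes malonyl-CoA, read 2.33 and 2.76 against 2.75 and 3.33 and overlapped narrowly. Fasn, the fatty acid synthase, read −0.75 and −1.23 against −1.0 and −0.47.

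Of the stearoyl-CoA desaturases, which introduce the first double bond, Scd1 read 4.48 and 2.86 against 4.05 and 4.21. Its RFP-negative arrays enclosed the RFP-positive ones, and the difference of 0.46 became −0.35 without RFP-negative replicate 2. Scd2 read 6.15 and 6.21 against 6.07 and 5.94 and was lower without overlap by 0.17 (SE 0.23). The role's median difference was 0.44 over 6 genes. Last, Ucp1, the uncoupling protein of brown fat, stood well above background on 0 arrays.

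**Figure D3:**
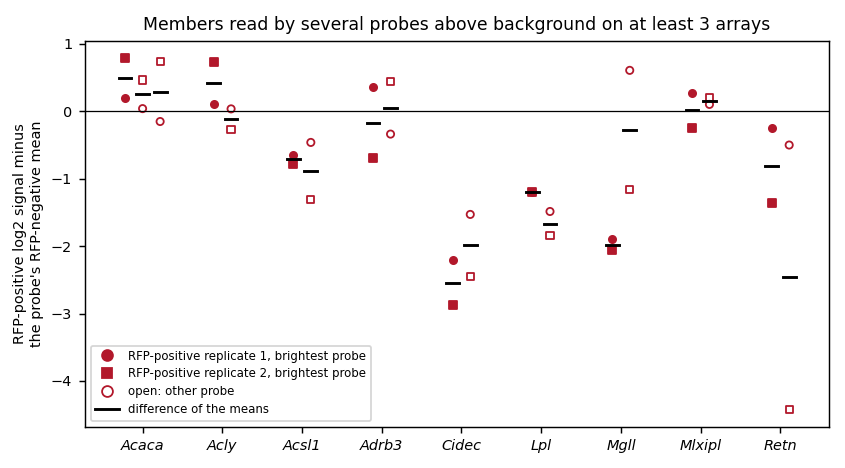
For members with several probes measured on at least 3 arrays, each RFP-positive array is plotted as log2 signal minus the probe's RFP-negative mean, filled for the brightest probe and open for the others, with the difference of the means as a bar. The probes of Cidec, Lpl and Acsl1 all lie below 0, and those of Mgll and Acly differ from each other.

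Where a gene had several probes, the brightest was used, and 11 members had more than 1. Cidec was lower by 1.99 on its second probe, Lpl by 1.67 and Acsl1 by 0.88, each without overlap and measured on all 4 arrays. The second Retn probe was lower without overlap, at −2.39 and −2.16 against −2.77 and −6.69, the last not well above background, whereas the brightest overlapped. Mgll had a further probe measured on 3 arrays, which overlapped at −3.46 and −3.73 against −2.99 and −4.75. For Acly the probe of another transcript read 3.30 and 3.09 against 3.23 and 2.92, so that its higher value on the brightest probe was not seen there. All 3 Acaca probes overlapped, with differences of 0.50, 0.25 and 0.29. The second Mlxipl probe was higher without overlap, by 0.15. Of the 8 further probes measured on all 4 arrays, 6 had the sign of the brightest probe.

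The 2 arrays of a fraction differed more for the lower members than for all genes lower without overlap. A gene with a small difference enters that class only where its arrays agree closely. The values below therefore do not compare genes of like difference. Over the 24 lower members the median SD between arrays was 0.24 for the RFP-negative pair and 0.32 for the RFP-positive pair, beside 0.13 and 0.23 over all 2897 genes lower without overlap. RFP-negative replicate 2 was above replicate 1 for 20 of the 24 members (83.3%), as it was for 51.6% of all lower genes. RFP-positive replicate 2 was below replicate 1 for 20 of the 24 (83.3%), as it was for 76.0% of all lower genes. The median difference from the RFP-negative mean over the 42 members was −0.58 on RFP-positive replicate 1 and −0.74 on replicate 2.

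Markers of other cells that the gate could hold were read beside these genes. A list of 18 stroma and fibroblast markers gave 16 that were compared. Beside 21.6% lower and 18.8% higher over all genes, 12 of these markers were lower, 1 higher and 3 overlapping, with a median difference of −0.79. Their summed signal, in multiples of the array's 75th percentile, was 83.2 and 131.9 on RFP-negative replicates 1 and 2 and 70.5 and 58.6 on the RFP-positive ones, highest on RFP-negative replicate 2. The members' own sum was 301.3 and 299.4 against 264.3 and 236.4. Sums weigh genes by their probes' brightness, and Cxcl12 made up 41.9% to 51.2% of the stroma sum. Without RFP-negative replicate 1 the median was −1.15, and without RFP-negative replicate 2 it was −0.44. Vcam1, an adhesion molecule of bone marrow stroma, read −1.38 and −1.50 against −2.41 and −3.47. Col1a1, the chain of fibrillar collagen, read 0.66 and 0.86 against −0.05 and −0.13. Thy1 was lower by 0.89, Spp1 by 1.97, S100a4 by 1.21 and Timp1 by 1.09, each without overlap, while Pdgfrb overlapped. Pdgfra, the receptor of mesenchymal progenitors, was the 1 higher marker, by 0.79, and Dcn and Postn stood well above background on 0 arrays. Fap was lower without overlap but measured on 1 RFP-positive array only. Among the 15 stroma markers measured on all 4 arrays 11 were lower and 1 higher, beside 20.4% and 18.9% of the genes so measured. The part of stromal cells in the lower signal of the members was not tested.

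Mural cell markers were lower in 6 of 9 cases and higher in 0 (median −0.61), beside 21.6% and 18.8% of all genes. Acta2 was lower by 0.99, Actg2 by 0.84, Myl9 by 0.79, Cnn1 by 0.62 and Tagln by 0.61, and Myh11 overlapped. The summed signal of the mural markers was 384.5 and 392.1 on the RFP-negative and 337.6 and 328.7 on the RFP-positive arrays. Mcam alone made up 87.5% to 92.6% of it. Without Mcam it was 32 and 49 against 25.9 and 24.3. Endothelial markers were higher in 7 of 12 cases and lower in 0 (median 0.21), beside 18.8% and 21.6% of all genes. Those higher were Kdr by 0.13, Cdh5 by 0.53, Pecam1 by 0.29, Tek by 0.40, Flt1 by 0.84, Cldn5 by 0.60 and Vwf by 0.56. The gap between the fractions was only 0.04 for Kdr, 0.01 for Cdh5 and 0.02 for Pecam1, and from 0.09 to 0.47 for the others. The sum over the endothelial markers was 95.5 and 90.6 against 104.4 and 113.9. Egfl7, which overlapped between the fractions, made up 35.8% to 46.2% of it. Without Egfl7 the sum was 51.3 and 51.4 against 58.1 and 73.1. Of 11 leukocyte markers 8 were compared, with 3 lower and 0 higher (median −0.07) and sums of 154.5 and 146.5 against 141.4 and 137.0. Itgam alone made up 84.8% to 87.5% of them, and without it they were 19.3 and 20.7 against 21.5 and 18.9. Ptprc and Csf1r overlapped, Itgam was lower by 0.13, and the macrophage markers Adgre1 and Lyz2 stood well above background on 0 arrays. Of the 4 leukocyte markers measured on all 4 arrays 1 was lower, Itgam, beside 20.4% of the genes so measured. The other lower ones rest on unmeasured RFP-positive signals. Coro1a was well above background in the RFP-negative fraction alone, and Aif1 on 1 RFP-positive array.

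**Figure D4:**
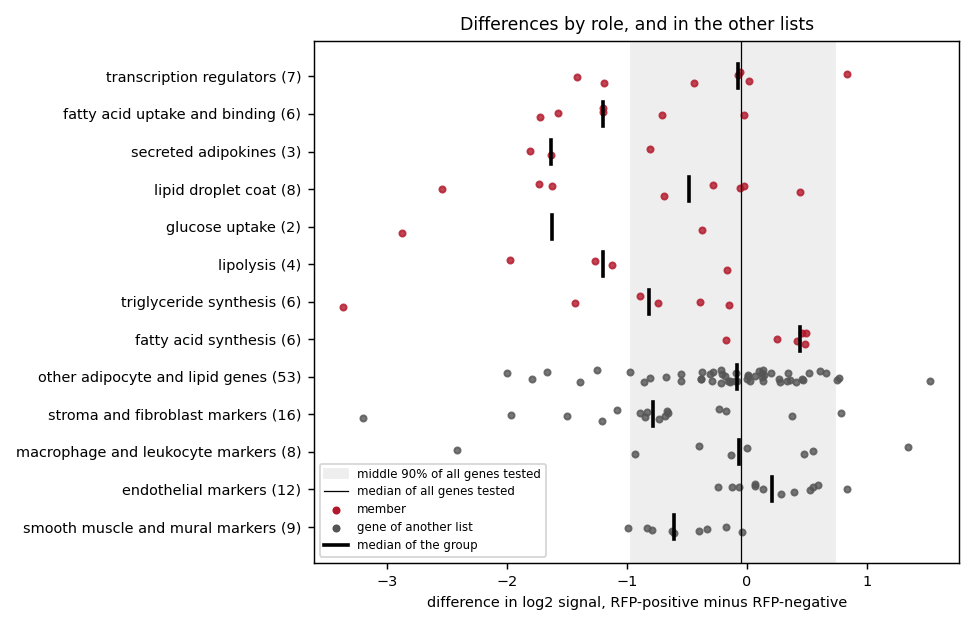
Differences in log2 signal, RFP-positive minus RFP-negative, are plotted for each gene compared, by role for the members (red) and for the other lists (grey), with medians as bars and the number of genes in parentheses. The grey band holds the middle 90% of all genes tested, from −0.97 to 0.74. Medians of the members' roles lie between −1.63 and 0.44, those of stroma and mural markers at −0.79 and −0.61, and that of endothelial markers at 0.21.

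A further 60 genes of fat cells and lipid metabolism, listed by function, gave a mixed picture. Of the 53 compared, 17 were lower (32.1%), 10 higher (18.9%) and 26 overlapping, beside 21.6% lower and 18.8% higher of all genes. Among the 50 measured on all 4 arrays 14 were lower and 10 higher, beside 20.4% and 18.9% of the genes so measured. Of the 53, 0 passed an adjusted p of 0.05 in limma, and their median difference was −0.08. Aoc3, an amine oxidase on the surface of fat and smooth muscle cells, read 1.18 and 0.98 against −0.55 and −1.29, a 4.01-fold lower RFP-positive mean. Cpt1a, the gate of fatty acid entry into mitochondria, read −1.54 and −0.80 against −2.59 and −3.08. Cav1, the caveola protein, was lower by 0.97 without overlap. Ncoa1, a nuclear receptor coactivator, was higher, at −2.68 and −2.92 against −0.60 and −1.94. Of the partners of Pnpla2 in the list, Abhd5, its activator, read −0.50 and −0.44 against −0.78 and −1.25 and was lower. The inhibitor Hilpda overlapped with a difference of −0.16, and the inhibitor G0s2 was lower without overlap but measured on 1 RFP-positive array only.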

How the data were processed

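Total RNA of sorted mouse cells was labelled with Cy3 and hybridised to 4 Agilent arrays, 2 per fraction. Processed signals were deposited as linear intensity; per the file headers, Feature Extraction 10.10.1.1 from Agilent produced them. The deposited value table holds the same signals multiplied by 1 constant per array. Control spots and spots marked as outliers were left out. The log2 signal minus that of the array's 75th percentile was taken, spots of a probe were averaged, and 27235 of 55681 probes were named through their RefSeq accession (GRCm38.p6 table). The brightest probe stood for a gene. All 13432 genes were fitted with limma 3.58.1 in R 4.3.3 (two-sided, Benjamini-Hochberg), with no block. The fit was tested on simulated data.

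The members and all lists were chosen with earlier results of these data known. Members that entered the comparison were given with their values, and of other lists the 4 widest differences without overlap among genes measured on all arrays, plus preset defining markers. Abhd5, Hilpda, G0s2, Pdgfra and other genes outside this rule were named after their values were seen. Alternatives were other scalings, normexp background correction (offset 50), the value table, filters, probe averaging, a replicate block, eBayes with trend and leaving out each array. Python 3.11.15, pandas 2.3.3 and matplotlib 3.10.9 were used.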

Additional observations from a re-analysis of the deposited data

How the results depend on the processing

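With 2 arrays per fraction, no gene's difference passed the adjusted threshold under any of the 13 alternatives. The replicate numbers of the labels name no shared culture, and with the replicate block 0 genes passed and 1037 had an unadjusted p under 0.05, beside 872 without it and 937 with a variance trend. The deviations of same-numbered arrays correlated at 0.092 over genes. Every recomputed difference of a member reported as lower (261 values) or higher (33 values) kept its sign, as did 138 of 164 values of overlapping members. For the lower and higher members much of this was fixed in advance. Without overlap, leaving out 1 array cannot turn the sign, and the filters and the value table reuse the same signals. Only the other scalings, normexp background correction and probe averaging could have turned it. The number of lower members ran from 21 to 26 with all arrays, where 16.6% to 23.3% of all genes were lower, and from 26 to 31 with an array left out, where 32% to 46.9% were. Normexp background correction gave a members' median of −0.48 and 5 members at least 2-fold lower. Leaving out an array gave 6 to 8 higher members, beside 30.3% to 34.5% of all genes, 10 to 16 members at least 2-fold lower, beside 1.66% to 7.33%, and stroma medians from −1.15 to −0.44. The median of the other adipocyte and lipid genes was near 0 throughout, at −0.00015 with median scaling, −0.031 with normexp, 0.0045 over genes measured on all arrays, and −0.14 to −0.014 when an array was left out. Signals not well above background give bounds alone.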

Other observations

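Genes of the step before fat cell commitment were read among the further lipid genes, and were picked out here after their values were seen. Zfp423, a zinc finger factor of committed preadipocytes, read 2.96 and 2.92 on the RFP-negative and 3.33 and 4.10 on the RFP-positive arrays, higher without overlap by 0.77. Dlk1, or Pref-1, which marks preadipocytes and many embryonic tissues, read 1.44 and 1.95 against 2.05 and 2.56, higher by 0.61. Ebf1, an early B-cell and adipogenic factor, overlapped with a difference of −0.14. Rxra, the partner with which PPARγ binds DNA, read −2.74 and −2.23 against −2.92 and −2.79, lower by 0.37. Other early adipogenic regulators of the list did not share one direction. Klf5 was lower without overlap by 0.67 and Stat5b higher without overlap by 0.34. Zfp467, Klf4, Egr2 and Stat5a overlapped, and Ebf2 was well above background on 0 arrays.

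Of the enzymes that burn fatty acids, Acadvl was lower by 0.38 and Acadm by 0.30, both without overlap, and Cpt2 overlapped with a difference of 0.14. Mogat1, an acyltransferase that Pparg is known to induce, stood well above background in the RFP-negative fraction alone, which had at least 1.52-fold the RFP-positive signal. Fitm2, which partitions triglyceride into droplets, read −2.10 and −1.82 against −2.57 and −4.93, the last not well above background. The receptors through which adiponectin acts, Adipor1 and Adipor2, overlapped, with differences of 0.10 and −0.10, while the signal of Adipoq itself was lower in RFP-positive cells.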
